A study of Caenorhabditis elegans with 2 samples.

Results

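The genes described are lin-35 and 7 partners of its product in the DREAM complex of Caenorhabditis elegans: efl-1, dpl-1, lin-9, lin-37, lin-52, lin-53 and lin-54. They are 8 of 19973 protein-coding genes. The genes were chosen by symbol after the strong peak between lin-35 and vps-51 had been seen in these data, so every value given for the 8 is a description and none is tested.

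LIN-35 is the worm's retinoblastoma-family pocket protein. In the DREAM complex it joins the E2F protein EFL-1 and its DP partner DPL-1 to the MuvB core, which is made of LIN-9, LIN-37, LIN-52, LIN-53 and LIN-54. The complex sits at promoters of cell cycle genes and keeps them repressed, and in worm somatic cells it also holds germline genes off. Its genes belong to the class B synthetic multivulva group (synMuv B), named for the vulval defect that appears when a class A gene is lost together with a class B gene.

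CEH-2 is an EMX-type homeobox transcription factor. The chromatin came from whole hermaphrodite late embryos of the transgenic strain OP323, collected 5 h after egg bleaching, in which CEH-2 carries a C-terminal GFP-FLAG tag, and DNA was precipitated with an antibody against GFP. There was 1 group of 2 biological replicates, both of that 1 line, and no second genotype, stage or treatment. The material was whole embryos, so a peak cannot be assigned to a cell type, and chromatin of embryos without the tag was not analysed here. Peaks are the authors' own calls. Each has a summit, its highest point, and a signal, a value of the peak caller. The scale of the signal is not given in the sources used here, and it serves chiefly to order peaks within 1 list. Medians and log2 distances of signals are given only as descriptions on that unknown scale.

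Of 4 lists on the ce11 genome, the relaxed lists of replicate 1, of replicate 2 and of the pooled reads held 18411, 15161 and 16022 nuclear peaks, and the reproducible set held 1430. All 1430 reproducible peaks were the pooled peaks with a signal of 86.3 or more. The lists give no read counts, so depth is unknown. The −log10 q-value spanned only 2.31 to 2.88 in the reproducible set and was not used to order peaks. In each relaxed list it went down to 0.018, and the pooled one is labelled as holding background as well as peaks. A relaxed call alone is therefore no evidence of binding. A gene was credited with a summit lying in its promoter window, which reached 1000 bp upstream and 200 bp downstream of any of its annotated transcript starts.

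By this rule 3 of the 8 genes, lin-35, lin-54 and lin-53, had a reproducible summit (37.5%), where 5.97% of all protein-coding genes had one. The pooled list had a summit for 7 of the 8, where the share of all genes was 29.4%. The −log10 q-value of these pooled summits was only 0.12 at dpl-1 and 0.20 at lin-37, so both calls may be background. Replicate 1 had one for 6 of the 8, against 30.8% of all genes, and replicate 2 for 7, against 28.2%. No DREAM gene had a reproducible summit in its gene body, where 1.81% of all genes had one. In the pooled list dpl-1 and lin-9 did (2 of 8), where 27.2% of all genes did. The genes were selected on these lists, so nothing is read from the shares. By pooled signal the order was lin-35, lin-54, lin-53, efl-1, lin-9, lin-37 and dpl-1, with lin-52 having no summit in its window in any list. Replicate 2 kept that order among the 7. In replicate 1 lin-9 stood above efl-1 and lin-37 had no summit, so the order of efl-1 and lin-9 was not stable between replicates. The DREAM genes nearest to the limit of 86.3 were lin-53, inside at 105.1 and rank 994 of 1430, and efl-1, outside at 68.5 and rank 2191 of the pooled list, so neither lay close to it.

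**Figure D1:**
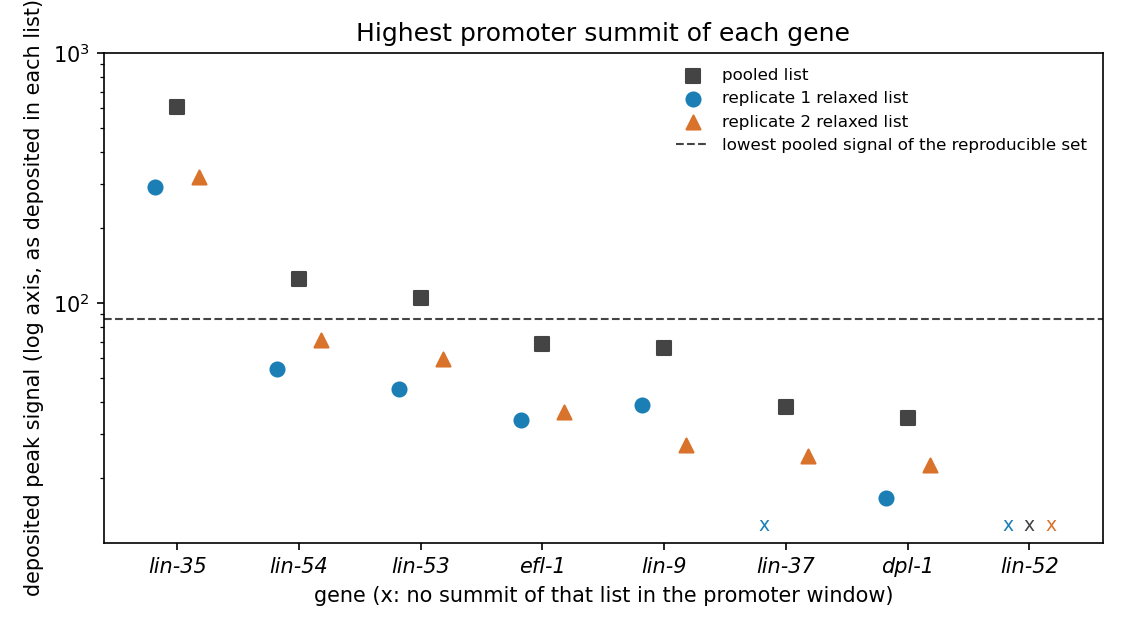
Signal of the highest promoter summit of each DREAM gene (vertical axis, log scale, units of the authors' peak caller) in replicate 1, replicate 2 and the pooled list, with genes along the horizontal axis in pooled order. The lin-35 summit, at 605.8 in the pooled list, stands above the next, lin-54 at 125.0, in all 3 lists, and lin-52 has no summit.

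The lin-35 gene (WBGene00003020) lies at chrI:5807709-5815637 on the plus strand and has 1 annotated transcript start. Its summit had a signal of 290.0 in replicate 1, 320.2 in replicate 2 and 605.8 in the pooled list. The pooled peak was 430 bp wide, chrI:5807216-5807645, and its summit at 5807467 lay 242 bp upstream of the start, in intergenic DNA. Both replicates placed it there, with summits 16 bp apart. Among all reproducible peaks with a matched summit in both replicates (n = 1421), the median offset was 25 bp, with quartiles of 9 and 51 bp. The lin-35 peak was the strongest of its chromosome in all 4 lists, and the next there had a pooled signal of 463.0. Inside the gene, a peak of 18 appeared in replicate 2 only. It lay in an intron of lin-35 and also of C32F10.4, a gene on the other strand.

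The lin-35 summit is also the promoter summit of vps-51, whose product belongs to a complex that tethers vesicles at the Golgi and endosomes. Both genes are transcribed away from the summit, and their starts are 418 bp apart. The summit was 176 bp upstream of the vps-51 start, closer than the 242 bp to lin-35. Peak lists alone cannot say which gene, if either, the peak acts on, and transcript levels were not part of the data.

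Genes were put in order of their highest promoter signal, and those sharing a summit took 1 place together. In that order lin-35 and vps-51 held place 3 in each list. That is place 3 of 850 in the reproducible set, of 4870 in the pooled list, of 5135 in replicate 1 and of 4669 in replicate 2. Only K12H4.5, with a pooled signal of 1749, and M01F1.9, with 1236, were higher. Directly after lin-35 in the pooled list came eel-1, which encodes a HECT-type ubiquitin ligase, at 559.2. The summit shared by C07H6.2, cux-7 and the DNA ligase gene lig-4 followed at 557.6. Then came the one shared by uncp-18 and ears-2, a glutamyl-tRNA synthetase gene, at 548.4. Replicate 2 had the same 3 in that order. In replicate 1 the summit of C07H6.2, cux-7 and lig-4 came next at 268.5, then that of idhg-1 and mlcd-1 at 265.6 and that of uncp-18 and ears-2 at 263.2, while eel-1, at 247.7, was lower. As single peaks, lin-35 ranked 4 in every list, since a peak in an intron of frm-7 outside any promoter window had a pooled signal of 671.6.

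The promoter summits most like that of lin-35 in both replicates were sought among 891, by distance between log2 signals. The closest was that of C07H6.2, cux-7 and lig-4, with 268.5 in replicate 1 and 289.6 in replicate 2 and a log2 distance of 0.18. That of ears-2 and uncp-18 followed with 263.2 and 285.3 (0.22). At eel-1 both replicates gave 1 peak, 247.7 and 309.5 (0.23), which matched a pair of pooled summits. The fifth, at K10D2.5, emb-1 and prp-19, had 243.5 and 269.6 (0.35). All of these lay below lin-35 in both replicates. That follows from the place of lin-35, since only K12H4.5 and M01F1.9 were higher and both were far above it.

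**Figure D2:**
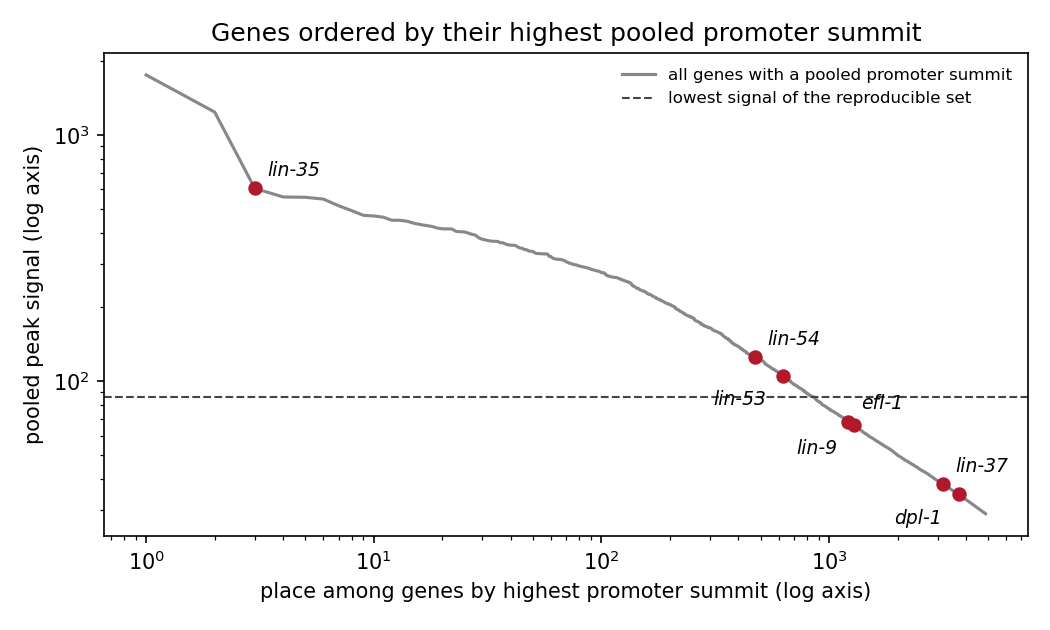
Signal of the highest promoter summit of each place (vertical axis, log scale, units of the peak caller) against its place in the pooled list (horizontal axis, log scale), with the DREAM genes marked. The lin-35 summit is at place 3, lin-54 at 472 and lin-53 at 628, both of these in the reproducible set, and the other 4 are below its limit of 86.3.

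EFL-1 and DPL-1 form the DNA-binding pair of the complex. The efl-1 gene (WBGene00001161, chrV:16958590-16965675, minus strand) had a summit of 34.2 in replicate 1, 36.5 in replicate 2 and 68.5 in the pooled list. The replicates were alike in both position and standing: their summits were 6 bp apart, and efl-1 took place 1285 of 5135 in one and 1222 of 4669 in the other. The pooled summit lay 205 bp upstream of efl-1 in intergenic DNA. It was also within the window of fbxa-90, an F-box gene transcribed the other way, 934 bp from its start. The nearest reproducible summit was 218860 bp from the efl-1 start.

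The bases within 50 bp of the efl-1 summit are shown because they hold a match to an E2F motif, the kind of element that E2F and DP pairs bind. They are chrV:16965830-16965930 on ce11, minus strand, from the RefSeq genome sequence of that build, written 5′ to 3′, with the match TTTCCCGC in capitals at positions 27 to 34, 17 bp from the summit at position 51.
efl-1: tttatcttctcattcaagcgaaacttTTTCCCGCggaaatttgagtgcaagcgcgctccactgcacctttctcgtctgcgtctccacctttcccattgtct

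The dpl-1 gene (WBGene00001061, chrII:9169910-9172565, plus strand) lies wholly inside T23G7.2, a gene on the other strand. It had the weakest pooled summit of the 7, at 34.7, which lay 33 bp downstream of the start, in the dpl-1 5′ UTR and an intron of T23G7.2. A weaker pooled summit of 32.2 lay 167 bp upstream. Replicate 2 had both, at 21.0 and 22.4. Replicate 1 had neither, and its only summit in the window, at 16.7, was 726 bp upstream in coding sequence of T23G7.2. The dpl-1 window therefore held no position that both replicates called.

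LIN-54 is the MuvB subunit that binds DNA directly, at the cell cycle homology region. The lin-54 gene (WBGene00003037, chrIV:13241044-13243401, plus strand, 3 starts) had a summit of 54.2 in replicate 1, 70.9 in replicate 2 and 125.0 in the pooled list. Places were 606 of 5135, 419 of 4669 and 472 of 4870, so the replicates put it at a like height. The replicate summits were 13 bp apart. The pooled summit was 403 bp upstream of the outermost lin-54 start and 10 bp inside the 5′ UTR of rpl-12, a ribosomal protein gene transcribed away from lin-54. The starts of these genes are 393 bp apart, and the summit lies next to that of rpl-12. A further peak inside lin-54, at 19.3, was in replicate 1 only.

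The part of the lin-54 peak that lies outside annotated genes, between the starts of rpl-12 and lin-54, is shown for its E2F and cell cycle homology region matches. It is chrIV:13240652-13240868 on ce11, plus strand, from the same RefSeq sequence, with matches in capitals: TTCAAA at positions 46 to 51, GCGCGAAA at 105 to 112 and TTTGAA at 211 to 216. TTCAAA and GCGCGAAA are TTTGAA and TTTCGCGC read on the other strand. The nearest is 56 bp from the summit. The stretch has a G+C content of 28.6%, against 50.5% within 50 bp of the summit.
lin-54: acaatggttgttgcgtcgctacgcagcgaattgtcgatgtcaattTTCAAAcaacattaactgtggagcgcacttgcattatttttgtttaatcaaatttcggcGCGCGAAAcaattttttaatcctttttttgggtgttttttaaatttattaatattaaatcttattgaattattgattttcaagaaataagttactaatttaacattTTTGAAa

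LIN-9 is a scaffold subunit of the MuvB core. The lin-9 gene (WBGene00002998, chrIII:8900237-8904131, minus strand) had a summit of 39.0 in replicate 1, 27 in replicate 2 and 66.2 in the pooled list. It was the gene on which the replicates differed most among those with a summit in both within 200 bp: place 1024 of 5135 in replicate 1 and 2100 of 4669 in replicate 2, with summits 76 bp apart. The pooled summit was 85 bp upstream of the start in intergenic DNA. It is in the window of no other protein-coding gene. Replicate 2 also had a summit of 18 further upstream, which is in the window of unc-32, a gene for a vacuolar proton pump subunit. In the gene body a pooled peak of 32.4 was called in replicate 2 at the same position with 26.1, and replicate 1 called another position with 16.8.

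The bases within 50 bp of the lin-9 summit are shown because they hold matches to both motif kinds within a short stretch. They are chrIII:8904166-8904266 on ce11, minus strand, from the same RefSeq sequence, with matches in capitals: TTTGAA at positions 7 to 12, TTCAAA at 45 to 50 and TTTCGCGC at 56 to 63. The last 2 lie 1 and 5 bp from the pooled summit, 8904216, at position 51. Replicate 1 had its summit at 8904213. That of replicate 2, at 8904289 with a −log10 q-value of 0.43, lies outside these bases.
lin-9: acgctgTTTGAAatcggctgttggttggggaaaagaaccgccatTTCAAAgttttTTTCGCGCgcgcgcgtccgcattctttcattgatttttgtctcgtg

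LIN-37 and LIN-52 are small subunits of the MuvB core, and LIN-52 is the one that contacts the pocket protein. The lin-37 gene (WBGene00003022, chrIII:7070890-7072552, minus strand) had a summit of 24.4 in replicate 2 and 38.3 in the pooled list, 222 bp upstream of its start by the pooled summit. In replicate 1 its window held none, and the nearest was 1720 bp upstream with 15.5. The pooled summit falls in the 3′ UTR of ZK418.5, which ends 60 bp before lin-37 on the same strand. The promoter window of ZK418.5 held a weaker pooled summit of 29.8. The lin-52 gene (WBGene00003035, chrIII:9824083-9824750, minus strand, 2 starts) had no summit in its window in any of the 4 lists. Its nearest pooled summit, 29.8, was 1537 bp upstream of its outermost start, in the window of ZK632.9, the next gene upstream on the same strand. Replicate 2 called that position with 25.9, and the nearest call of replicate 1, 22.5, was 1828 bp upstream.

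LIN-53 is a histone-binding protein of the RbAp48 type, which also serves in nucleosome remodelling, histone deacetylase and chromatin assembly complexes. Its gene (WBGene00003036, chrI:9618196-9619760, minus strand) had a summit of 45.2 in replicate 1, 59.8 in replicate 2 and 105.1 in the pooled list. Places were 814 of 5135, 552 of 4669 and 628 of 4870. The replicate summits were 74 bp apart, wider than the upper quartile of 51 bp for matched reproducible peaks. Replicate 1 had a second summit of 24.4 in the window, and the pooled summit, 221 bp upstream of the start, lay between the replicate 1 pair. That intergenic summit was also 246 bp upstream of nra-2, which encodes an endoplasmic reticulum protein and is transcribed away from lin-53. In replicate 2 the distances to the starts of nra-2 and lin-53 were 233 and 234 bp, so neither gene could be called the nearer by more than 1 bp. The paralog rba-1, which starts 88 bp beyond the end of lin-53 on the same strand, had no summit in its window in any list.

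**Figure D3:**
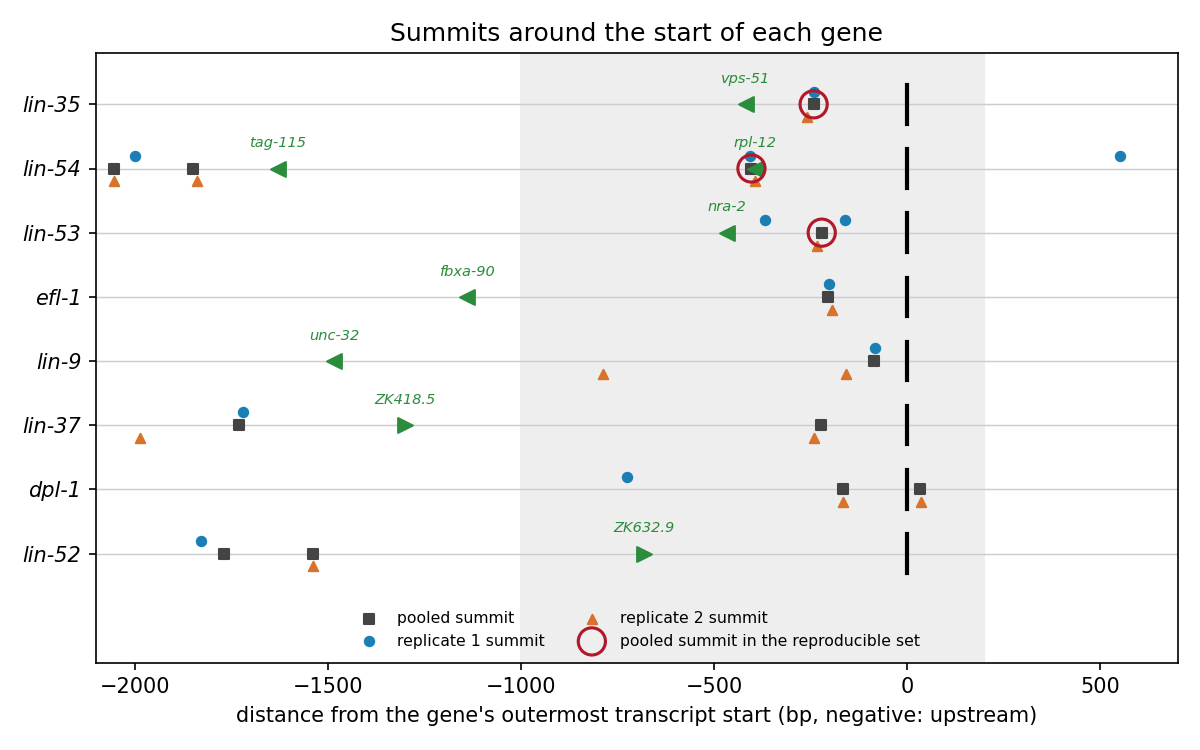
Position of each summit near the 8 genes (horizontal axis, distance in bp from the outermost transcript start, negative upstream), 1 row per gene, for the pooled list and both replicates. The grey band is the promoter window, green triangles mark starts of neighbouring genes, and red circles mark the pooled summits at lin-35, lin-54 and lin-53 that are in the reproducible set.

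All 3 reproducible summits of DREAM genes, at lin-35, lin-54 and lin-53, lay between divergent gene pairs or just inside the partner gene, and each was in the promoter window of that partner. In the whole reproducible set 334 of 896 promoter summits were in the windows of several genes (37.3%). For the best pooled summits the count was 4 of 7 DREAM genes, efl-1 being the fourth, beside 19.6% of 6100 pooled promoter summits. These shares count each summit once, while a count by genes takes a shared summit for each of its genes. They are therefore unlike measures, and nothing is read from them. The share of all genes whose best summit is shared is not given. When each summit was given only to the gene whose start was nearest, a rule added after the data were seen, lin-53 alone kept a reproducible summit, since vps-51 and rpl-12 were nearer than lin-35 and lin-54. The median pooled signal of the 7 DREAM genes with a summit was 68.5, beside 46.5 for all genes with a pooled promoter summit. For the 3 in the reproducible set it was 125.0, beside 138.0 for all genes there. The DREAM genes were chosen with these signals known, so nothing is read from the medians.

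The lin-35 summit was poor in G and C beside the other strong peaks, a difference that was not tested. The bases within 50 bp of it had a G+C content of 30.7%, and 33 of the 1430 reproducible summits were lower (2.31%). The other 9 of the 10 strongest reproducible peaks had between 43.6% and 64.4%, and the median of the reproducible set was 49.5%. At lin-54 and lin-53 the values were 50.5% and 55.4%, and at efl-1 and lin-9 they were 48.5% and 47.5%, all within or near the middle of the set. The weak summits of lin-37, at 24.8%, and dpl-1, at 34.7%, were low too. The median of all pooled summits was 43.6%.

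**Figure D4:**
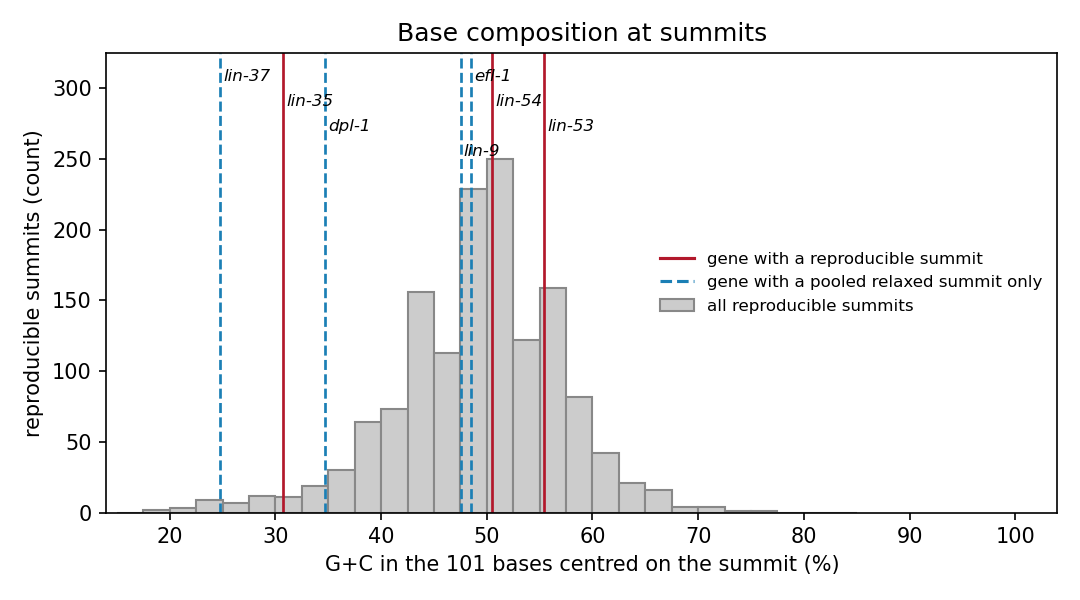
Number of reproducible summits (vertical axis) by G+C content of the bases within 50 bp of the summit (horizontal axis, percent), with vertical lines for the 7 DREAM genes that have a pooled summit. The lin-35 line, at 30.7%, lies in the low tail, while lin-54 at 50.5% lies near the median of 49.5%.

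Motifs were searched on both strands of the bases within 50 bp of the highest pooled summit of the 7 genes. The E2F motif was taken as TTTCCCGC, TTTCGCGC, TTTGCCGC or TTTGGCGC. It matched at 2 of 7, efl-1 and lin-9, beside 4.2% of reproducible summits, 2.83% of pooled summits and 1.38% of 19973 windows of the same length directly upstream of gene starts. Neither gene is in the reproducible set, and the summits of lin-35, lin-54 and lin-53 had no E2F match within 50 bp. With 100 bp to either side lin-53 had one as well. The cell cycle homology region, TTTGAA or TTCGAA, matched at 3 of 7, lin-9, lin-37 and lin-53, beside 19.9%, 20.9% and 33.4% in the same order. No letters of the E2F and cell cycle homology region matches overlapped in the sequences shown.

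Homeodomain cores, TAATTA or TAATGA, the kind of element a factor such as CEH-2 binds, matched at 0 of 7, beside 3.64% of reproducible summits, 9.53% of pooled summits and 13.1% of upstream windows. GAGAGA and GGCCAC were added because they were known from earlier results of these data to recur at summits. GAGAGA matched at 2 of 7, lin-35 and lin-37, beside 24.5%, 13.3% and 8.80%. GGCCAC matched at 0 of 7, beside 14%, 4.72% and 1.21%. A match is a run of letters and not a measured site, and a window without one says nothing of what binds there.

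Other genes of the retinoblastoma pathway were counted from 7 lists with 64 genes in all. Of these, 10 had a reproducible promoter summit (15.6%, beside 5.97% of all genes) and 44 a pooled one (68.8%, beside 29.4%). Replicate 1 and replicate 2 each had one for 41 (64.1%). The 10 rest on 9 summits, since bub-1 and lin-61 share one. Nothing is called particular to the lists from these counts.

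Among the G1 regulators 2 of 10 had a reproducible summit, where 5.97% of all genes had one. At cye-1, the cyclin E gene, the signal was 61.4 in replicate 1, 55.4 in replicate 2 and 113.8 in the pooled list. At cki-1, which encodes a CDK inhibitor of the p27 type, it was 73.7, 66.8 and 135.5. Both therefore stood beside lin-54 and lin-53 in height and far below lin-35. Of the E2F genes outside DREAM, efl-3 had 48.8, 52.7 and 98.4, and efl-2 had no summit in any list.

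Among synMuv genes outside DREAM, class A had 0 of 4 in the reproducible set, class B 1 of 11 and class C 2 of 4. Beside these, 5.97% of all genes had a reproducible summit, and no difference between the classes is read from so few genes. The class B gene was lin-61, whose product has MBT repeats that bind methylated histone H3, with 90.1 in replicate 1, 115.2 in replicate 2 and 201.6 in the pooled list. Its summit is shared with bub-1, a spindle checkpoint kinase gene on the list of S phase and mitosis genes. The class C genes were mys-1, a TIP60-type histone acetyltransferase gene, with 126.3, 132.4 and 259.5, and epc-1, whose product is a partner of that enzyme, with 46.3, 69.3 and 108.6. In class A only lin-38 had a pooled summit, at 79.6.

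The list of genes for other LIN-53 complexes held the highest summit after that of lin-35 among the 8 DREAM genes and the 64 of the lists. That summit belongs to chaf-2, with 211.8 in replicate 1, 232.0 in replicate 2 and 437.5 in the pooled list, and the gene for its partner in the chromatin assembly factor CAF-1, chaf-1, had 66, 55.2 and 121.4. These were 2 of 12 on that list with a reproducible summit, where 5.97% of all genes had one. Among S phase and mitosis genes, the kind that E2F and DREAM control, 2 of 21 had one (9.52%, beside the same 5.97%). They were bub-1, and the replication licensing gene cdc-6 with 43.9, 56.7 and 94.1. In the pooled list 15 of 21 had a summit (71.4%, beside 29.4% of all genes), with a median of 44.9, beside 46.5 for all genes with one. That included 4 of 6 genes of the MCM helicase, whose pooled signals ran from 29.7 to 37.0, near the lowest of that list, 29.0. Of these, mcm-2 alone had a summit in both replicates, so the calls may be background.

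Of the 9 reproducible summits at pathway genes, 5 were in the windows of several genes, where 37.3% of all reproducible promoter summits were. The 9 were reached through the genes of the lists, so that share is not a like measure. Besides the summit of lin-61 and bub-1, cye-1 shared its summit with pqn-21, epc-1 with Y111B2A.12, chaf-2 with Y71G12B.30 and cdc-6 with acin-1. The other 4, at efl-3, cki-1, mys-1 and chaf-1, were in the window of that gene alone.

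**Figure D5:**
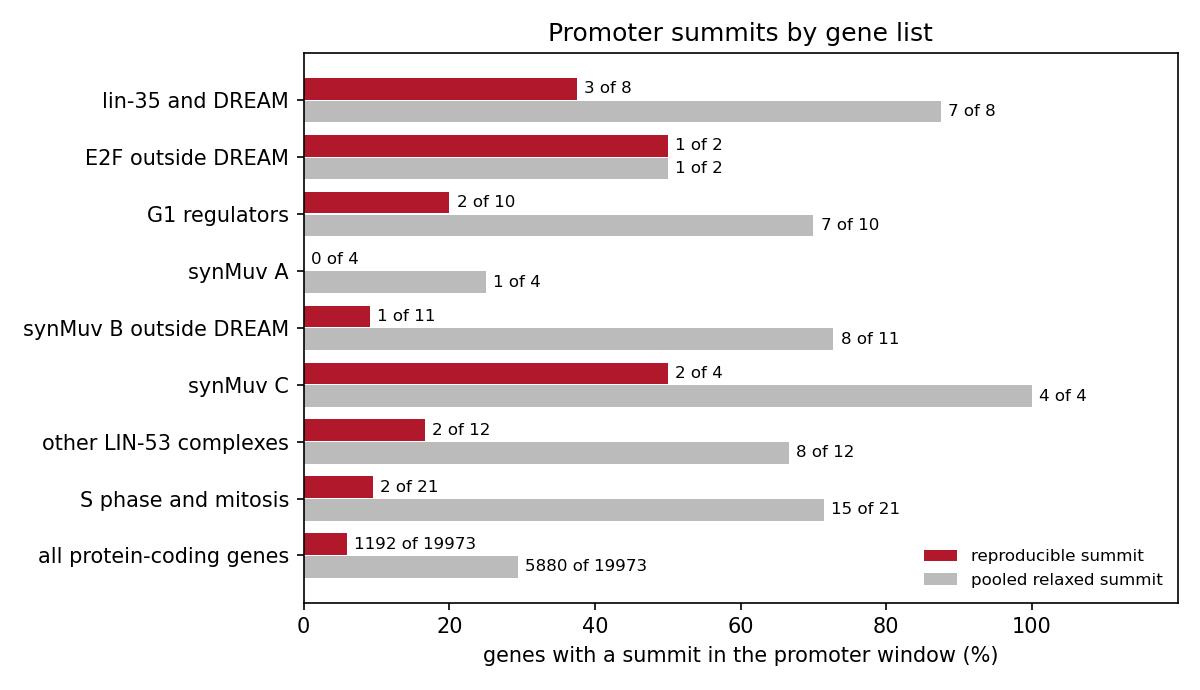
Percent of genes with a promoter summit (horizontal axis) for the DREAM genes, each of the 7 pathway lists and all protein-coding genes, in the reproducible set and in the pooled list. The DREAM genes are at 37.5% and 87.5%, and all protein-coding genes at 5.97% and 29.4%.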

How the data were processed

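The values are peak lists made by the authors from chromatin immunoprecipitation of CEH-2-GFP with an anti-GFP antibody in 2 biological replicates, on ce11 per the labels. Each peak has a signal, the deposited value of the authors' peak caller, and a −log10 q-value, which the authors also deposited. The caller, aligner, read filters, threshold of the irreproducible discovery rate and scale of the signal have no statement in the labels or notes: not given in the sources used here. Per the file notes, replicate and pooled lists were called against a control, and the reproducible set is the optimal set from both replicates. The reproducible set carries the pooled signals, and signals were not compared between the pooled and replicate lists. Lists on ce10 were not analysed here.

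The members and lists were chosen with earlier results of these data known. Ensembl release 115 gene models of WBcel235, the same assembly as ce11, gave transcript starts of 19973 protein-coding genes, with positions 1-based. Mitochondrial peaks (20 to 27 a list) were left out. A summit in several windows was given to each gene. Replicate summits were matched within 200 bp. No test was run: the genes were chosen on these values. The replicates share 1 line and 1 group, so their spread is that of 2 samples.

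Named genes are the 8, all genes whose window or body holds one of their summits, list genes with a reproducible summit, 3 places to either side of lin-35, and the 5 summits nearest to it in log2 signal. Alternatives were windows of 500 and 2000 bp, the outermost start, overlap by 1 bp, the upper 50% of the reproducible set by signal, 1 replicate at a time, sequence windows of 25 and 100 bp to either side, and, added after the data were seen, the nearest start only. On simulated data 200 of 200 planted summits went to the right gene. Scripts ran in Python 3.11.15 with matplotlib 3.10.9, pandas 2.3.3 and numpy 2.4.6.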

Additional observations from a re-analysis of the deposited data

How the results depend on the processing

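The count of 3 DREAM genes in the reproducible set, lin-35, lin-53 and lin-54, was the same with windows of 500 and 2000 bp. It also held with the outermost start and with overlap by 1 bp. Over these the share of all genes ran from 4.69% to 7.75%. Either replicate alone gave the same 3 genes (3 to 3). A single replicate has no reproducible set, and the cut used in its place is not given here. In the relaxed lists lin-53 was at rank 1396 of 18411 in replicate 1 and 873 of 15161 in replicate 2. The count was 1, lin-35, in the upper 50% of the set by signal. It was 1, lin-53, with the nearest start only, where 4.31% of all genes had a reproducible summit. The nearest-start rule, chosen after seeing the data, also gave 4 genes in replicate 2 (7 in the main count). It gave 4 in replicate 1 (6) and 5 in the pooled list (7). The share of all genes in these relaxed lists under that rule is not given, so nothing is read from these counts. In that upper 50% of the set 3.46% of all genes and 5 of the 64 pathway genes had a summit, as fewer peaks were used. With 2000 bp all 8 DREAM genes had a summit in the pooled and in both replicate lists, as the window was longer. The share of all genes in those lists at 2000 bp is not given, so nothing is read from that count. At 1000 bp it ran from 28.2% to 30.8%. In the reproducible set 18 pathway genes had a summit with 2000 bp, where 7.75% of all genes had one. Either replicate alone gave 12 to 13 pathway genes and 5.80% to 5.94% of all genes. The place of lin-35 was 3 with either replicate alone and 1 with 500 bp upstream, where the summits of K12H4.5 and M01F1.9 are no longer in a window. With 25 bp to either side of the summit GAGAGA matched at 0 genes, beside 13.5% of reproducible summits. With 100 bp the cell cycle homology region matched at 5, beside 39.1%, and a homeodomain core at 1, beside 10.6%. The E2F motif then matched at 3, efl-1, lin-9 and lin-53, beside 7.27%. Across all alternatives 46 values lay within 1.5 times the main one and 10 did not, and those 10 are given here. The nearest-start place of lin-35 was not computed, as the summit then belongs to vps-51. No paired analysis was possible because there is 1 group and the results come from no test. With 2 replicates, no read counts and a signal of unknown scale, differences between genes of like signal cannot be told apart.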
